A study of Mus musculus with 4 samples.

Results

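Cholesterol is built from acetyl-CoA in a chain of enzymes of the cytosol and the endoplasmic reticulum. Hmgcs1 makes HMG-CoA, Idi1 and Fdps make the isoprenoid units and farnesyl diphosphate, Fdft1 joins these into squalene, Sqle and Lss turn squalene into lanosterol, and Cyp51 and Dhcr7 act on the sterol ring on the way to cholesterol. The genes of the chain are classic targets of the SREBP transcription factors, which are released from the endoplasmic reticulum when sterols are scarce, bind sterol regulatory elements near the start of transcription and act there with NF-Y, which binds the CCAAT box. The genes described here are these 8 (Hmgcs1, Idi1, Fdps, Fdft1, Sqle, Lss, Cyp51 and Dhcr7), taken by name from the GENCODE M21 annotation, among 21911 protein-coding genes. All 8 were found.

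The data are ALaP-seq peaks. PML bodies are protein assemblies of the cell nucleus whose scaffold is the PML protein, and in ALaP-seq the peroxidase APEX, fused to PML, puts biotin on chromatin nearby when hydrogen peroxide is added. The series has 4 samples of the male mouse embryonic stem cell line E14, all carrying an APEX-PML knock-in and all grown in serum with leukemia inhibitory factor, CHIR99021 and PD0325901: 2 given hydrogen peroxide (H2O2+) and 2 controls without it (H2O2-). No sample without the knock-in is among them, and the labels do not say how many clones the knock-in line holds. The deposited file is 1 list of 26496 peaks on mm10 with the replicates merged. It gives each peak's position only, so H2O2+ was not compared with H2O2-, the depth is unknown, no spread between replicates can be given, and closeness of a gene to PML bodies was not tested. Peak height is not given, so only widths are described below, and how width goes with signal was not tested. As a check of the cell type, all 5 stem cell marker genes looked at (Pou5f1, Nanog, Sox2, Klf4 and Zfp42) had a promoter peak, where the peak shares of genes of like promoter CpG content give 1.99. The 3 genes of other tissues (Alb, Afp and Cd3d) had none, but genes of like CpG content give 0.325, so these say little on the cell type. A peak is not a measure of expression.

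Most of the 8 genes carried a peak where transcription starts. A promoter peak, one that shares at least 1 bp with the 1 kb either side of the TSS (the 5′ end of the gene model), was present at 6 of the 8: Hmgcs1, Idi1, Sqle, Lss, Cyp51 and Dhcr7. This is 75% with an exact 95% interval of 34.9 to 96.8%, set beside 38.4% of all protein-coding genes, a value inside that interval. The CpG observed/expected ratio, the count of CG pairs over that given by the C and G content, was taken in the 500 bp on each side of the TSS; its median was 0.664 over the 8 genes and 0.552 over all genes. When all genes were put into 10 classes of about equal size by this ratio, the share with a promoter peak was 0.867% in class 1, the lowest, 72.3% in class 9 and 68.9% in class 10. Had each of the 8 genes had the peak share of its own class, 4.26 of them would have had a promoter peak. When every annotated transcript start is considered, Fdft1 joins, which makes 7 of 8 (exact 95% interval 47.3 to 99.7%) beside 42.4% of all protein-coding genes, a value below that interval. That 42.4% was not matched for CpG content, and no matched share was taken for this count. The 8 genes also have more annotated starts to meet a peak, 5.88 per gene beside 4.26 for all, and the part of this in the count was not tested. Fdps had no peak at any start. The intervals cover counting error only.

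The promoter sequences are shown to place the peaks on them and to look for words that SREBP and NF-Y are known to read. RefSeq promoters (GRCm38.p6, the build that mm10 names) run from 250 bases before to 50 after a start, 300 in all. They matched 5 of the 8 genes, Hmgcs1, Lss, Cyp51, Idi1 and Dhcr7; Sqle, Fdps and Fdft1 were not matched. Each is written 5′ to 3′ on the strand of the gene, with capitals for the sterol regulatory element core TCACNCCAC and for CCAAT or its reverse complement ATTGG. Dhcr7 is shown at the start with a peak and at a later start without one.
Hmgcs1, chr13:119690101-119690400, plus strand: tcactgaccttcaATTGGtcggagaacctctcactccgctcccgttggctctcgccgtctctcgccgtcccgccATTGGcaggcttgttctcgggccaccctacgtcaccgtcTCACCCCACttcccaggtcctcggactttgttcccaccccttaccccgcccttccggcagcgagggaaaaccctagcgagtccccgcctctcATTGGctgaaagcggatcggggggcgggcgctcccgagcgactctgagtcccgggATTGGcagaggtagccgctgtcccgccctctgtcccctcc
Idi1, chr13:8885356-8885655, plus strand: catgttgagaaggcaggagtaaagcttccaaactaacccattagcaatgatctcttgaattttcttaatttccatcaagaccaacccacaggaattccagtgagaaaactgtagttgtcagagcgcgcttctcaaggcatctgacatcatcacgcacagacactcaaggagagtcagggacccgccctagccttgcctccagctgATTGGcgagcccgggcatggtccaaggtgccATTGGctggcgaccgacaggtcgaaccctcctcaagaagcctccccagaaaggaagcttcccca
Lss, chr10:76531355-76531654, plus strand: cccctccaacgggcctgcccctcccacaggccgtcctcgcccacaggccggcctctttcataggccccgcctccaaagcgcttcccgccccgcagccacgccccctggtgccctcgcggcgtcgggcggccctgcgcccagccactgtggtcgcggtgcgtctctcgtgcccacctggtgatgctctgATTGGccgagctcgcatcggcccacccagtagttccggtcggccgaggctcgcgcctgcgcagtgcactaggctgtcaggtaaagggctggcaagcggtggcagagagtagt
Cyp51, chr5:4104648-4104947, minus strand: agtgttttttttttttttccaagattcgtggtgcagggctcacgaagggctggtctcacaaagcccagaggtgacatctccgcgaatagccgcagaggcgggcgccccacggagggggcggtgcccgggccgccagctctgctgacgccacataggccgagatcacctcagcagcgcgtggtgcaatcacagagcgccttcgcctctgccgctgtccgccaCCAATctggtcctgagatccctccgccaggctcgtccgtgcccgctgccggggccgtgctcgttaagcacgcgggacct
Dhcr7 at the start with a peak, chr7:143822917-143823216, plus strand: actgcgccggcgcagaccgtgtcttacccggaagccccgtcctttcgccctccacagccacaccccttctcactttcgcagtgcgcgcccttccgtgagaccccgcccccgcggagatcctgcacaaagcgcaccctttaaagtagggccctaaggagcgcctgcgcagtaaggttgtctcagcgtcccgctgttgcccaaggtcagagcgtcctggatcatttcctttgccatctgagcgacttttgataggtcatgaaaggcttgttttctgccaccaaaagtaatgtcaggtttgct
Dhcr7 at a later start, chr7:143829964-143830263, plus strand: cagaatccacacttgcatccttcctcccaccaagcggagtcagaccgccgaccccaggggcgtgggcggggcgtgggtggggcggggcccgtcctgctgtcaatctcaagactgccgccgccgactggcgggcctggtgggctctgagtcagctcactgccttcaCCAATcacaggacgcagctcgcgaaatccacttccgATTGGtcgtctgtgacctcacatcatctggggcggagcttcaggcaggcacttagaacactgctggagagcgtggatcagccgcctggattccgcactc

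The element core was found in Hmgcs1 alone of the 5, on the plus strand from 137 to 129 bases before the RefSeq start, read as TCACCCCAC. Searched on both strands, TCACNCCAC occurs in 1.24% of the 32851 RefSeq promoters, and the shorter word CACNCCAC, which every TCACNCCAC contains, in 6.24%; the shorter word found no other of the 5. A CCAAT box was present in 4 of the 5 promoters at the first RefSeq start, against 37.4% of all promoters. Hmgcs1 has 4 of them, Idi1 has 2, and Lss and Cyp51 have 1 each. The GC box GGGCGG, bound by Sp factors, was in all 5 (35.7% of promoters), and the palindromic E-box CACGTG in none (7.15%), although it occurs at another of the Dhcr7 starts. The shares over all promoters were not matched for GC or CpG content. The words found are matches of letters, and no binding was measured. Only these exact words were searched, so an element with other letters would be missed.

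Peak and words lie apart in some of the 5 promoters. The Hmgcs1 peak covers all 300 bases, so the element core and all 4 CCAAT boxes are inside it. In Cyp51 the peak covers bases 69 to 300, with the CCAAT box at bases 222 to 226. In Lss it covers bases 76 to 176, and the CCAAT box follows at bases 189 to 193, outside it. In Idi1 the peak begins at base 271, after both CCAAT boxes (bases 206 to 210 and 237 to 241). The Dhcr7 peak covers bases 1 to 254 of a promoter without a CCAAT box; the later Dhcr7 promoter, with 2 CCAAT boxes and 3 GC boxes, has no peak. In 300 bases centred on each of the 7 peaks at starts of these 5 genes, CCAAT was found in 4 and the element core in none, beside 33.4% and 1.28% of the 26496 peaks taken the same way. These windows are not the peaks themselves. At Lss and Idi1 the CCAAT box found lies outside the peak. The window on the main Hmgcs1 peak is centred 319 bp after the TSS and misses the words inside that peak. The Hmgcs1 window with CCAAT is that of a second, narrower peak.

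Hmgcs1, the gene of the cytosolic HMG-CoA synthase, has the widest of these peaks. The gene lies on the plus strand of chromosome 13, from 119690379 to 119708260. Its main promoter peak, from 119689846 to 119691549, is 1704 bp wide and reaches from 533 bp before to 1170 bp after the TSS, into intron 1. All 4 annotated starts, which span 85 bp, lie inside it. Of the 21911 protein-coding genes, 38 (this one included) have a promoter peak at least as wide, and 0.162% of all peaks in the list are. A narrow second peak of 122 bp lies 948 to 1069 bp before the TSS, so only its near edge is inside the 1 kb window, and all of it is in letters that the genome file marks as repeat. Another of 444 bp follows at 1116 to 1559 bp, just outside the window.

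Idi1, whose product isomerises isopentenyl diphosphate, has narrow peaks on either side of its downstream starts. The gene lies on chromosome 13 from 8885501 to 8892451, on the plus strand. One peak of 179 bp (8885626 to 8885804) lies 125 to 303 bp after the TSS, in exon 1 of Idi1-201, and one of 118 bp (8886060 to 8886177) lies 559 to 676 bp after it, in intron 1. No annotated start is inside a peak; the closest, that of Idi1-205, is 66 bp away. All 5 starts are within 1 kb of a peak, including that of Idi1-202, 892 bp from one and in CpG-poor sequence (CpG observed/expected 0.0878). Both peaks are also within 1 kb of an annotated start of Gm48574, so they cannot be given to either gene.

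Fdps, the farnesyl diphosphate synthase gene on the minus strand of chromosome 3 (89093588 to 89101959), is the member without a peak at a start. None of its 7 annotated starts, which spread over 6280 bp, is within 1 kb of a peak, and the nearest distance is 4548 bp. Its promoter does not lack CpG: the CpG observed/expected is 0.659 at the TSS, in class 7, where 64.6% of genes have a promoter peak. The peak within 50 kb, of 328 bp (89090804 to 89091131), lies 10828 bp or more downstream of the TSS, beyond the 3′ end of Fdps, and is within 1 kb of a start of the neighbouring gene Rusc1. Gm43738, whose TSS is 860 bp downstream of that of Fdps on the same strand, had no promoter peak either.

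Fdft1, which encodes squalene synthase, shows how the choice of start decides a call. On the minus strand of chromosome 14 (63145150 to 63179578), its model begins with the transcript Fdft1-204, in CpG-poor sequence (0.111, class 1, where 0.867% of genes have a promoter peak). The peak of 554 bp (63177866 to 63178419) begins 1159 bp downstream of this TSS and so misses the 1 kb window. It lies 73 bp upstream of the start of Fdft1-201 and 69 bp upstream of that of Fdft1-202, where the CpG observed/expected is 0.764. Its midpoint is in exon 3 of Fdft1-204. A peak at another start but none at the TSS was found at 3.97% of protein-coding genes.

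Sqle, the squalene epoxidase gene of chromosome 15 (59315077 to 59331192, plus strand), has a promoter peak of 414 bp (59314518 to 59314931) that stops 146 bp before the TSS. The 3 starts at the front of the gene have it within 1 kb, and the start of the retained-intron transcript Sqle-203, 10466 bp downstream, has none. Lss, lanosterol synthase, on chromosome 10 (76531588 to 76557138, plus strand), has the narrowest of all the peaks at these genes, 101 bp (76531430 to 76531530), ending 58 bp before the TSS; 97.4% of the peaks in the list are at least as wide. The 4 Lss starts at the front have a peak within 1 kb, and the 3 others, of Lss-208, Lss-207 and Lss-205, do not.

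Cyp51, the lanosterol demethylase gene, on the minus strand of chromosome 5 (4081145 to 4104746), has a peak of 420 bp (4104460 to 4104879) over its TSS, from 133 bp before to 286 bp after, with its midpoint in exon 1. The start of Cyp51-203, 1365 bp downstream, is 1079 bp from this peak and is the one Cyp51 start without a peak. Dhcr7, 7-dehydrocholesterol reductase, on chromosome 7 (143823145 to 143848410, plus strand), has a peak of 313 bp (143822858 to 143823170) from 287 bp before to 25 bp after the TSS. This peak is shared: Nadsyn1, a gene of NAD synthesis, starts 296 bp upstream on the other strand, so the peak is also its promoter peak and cannot be given to either gene. Of 12 Dhcr7 starts only the 2 at the front have a peak. The 10 others begin 5752 bp or more downstream, and among them the 5 starts from Dhcr7-207 to Dhcr7-203 lie within 6932 to 7113 bp, in sequence whose CpG observed/expected (0.527 to 0.585) is close to that at the front (0.528 and 0.536).

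**Figure D1:**
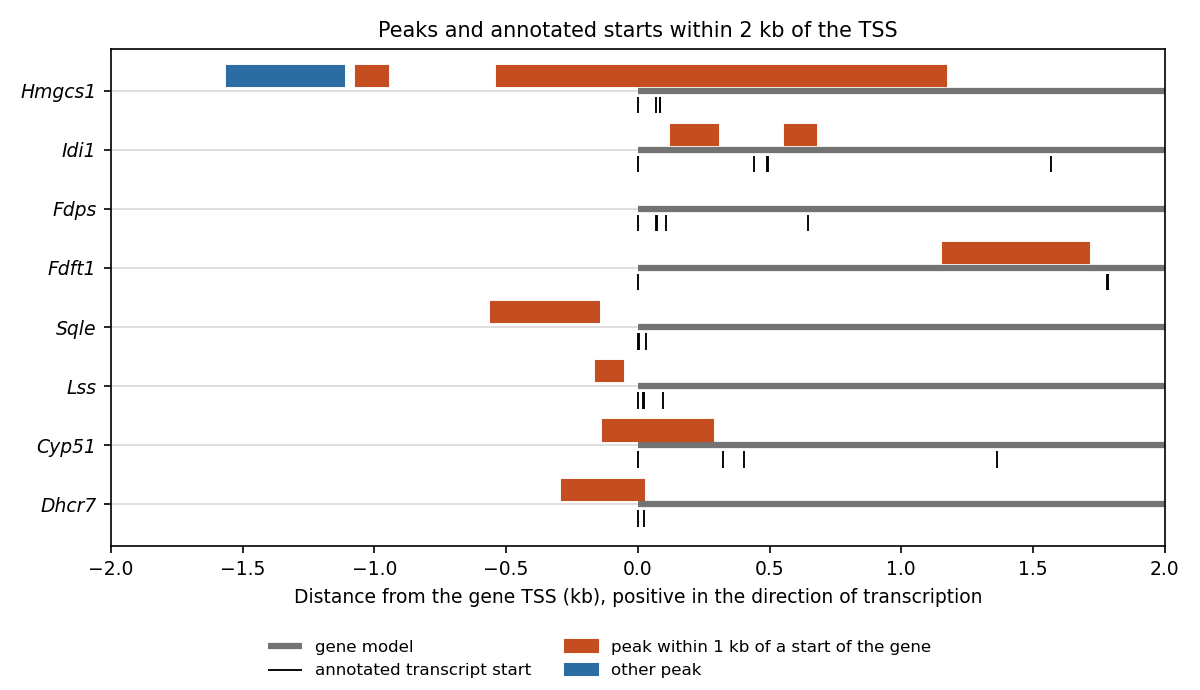
Peaks and annotated transcript starts within 2 kb of the TSS of each gene. The horizontal axis is the distance from the TSS in kb in the direction of transcription, boxes are peaks drawn to scale, ticks are annotated starts and grey bars gene models; the Hmgcs1 peak of 1704 bp spans its starts, the Fdft1 peak sits just before its second group of starts, and the Fdps row holds no peak.

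Seen start by start, 23 of the 47 distinct annotated starts of the 8 genes had a peak within 1 kb, 48.9% (exact 95% interval 34.1 to 63.9%) beside 34.5% of the 93444 starts of all protein-coding genes. Starts of a gene can share a peak, so they are not independent. Of the 47, 7 lie inside a peak, beside 18.2% of all starts; these are 4 of Hmgcs1, 2 of Dhcr7 and 1 of Cyp51, and at Sqle, Lss, Idi1 and Fdft1 the peak lies beside the starts. CpG content goes with the calls: the median CpG observed/expected was 0.694 over the 23 starts with a peak and 0.301 over the 24 without. Exceptions remain. The Fdps starts of 0.659 to 0.713, in class 7 (64.6% of genes with a promoter peak), have no peak. Idi1-202, in class 1 (0.867%), has one, but 892 bp away, so a window of 500 bp either side would not call it. The Fdps start of 0.484 and 5 later Dhcr7 starts of 0.527 to 0.585 have no peak either. They are weaker exceptions, in classes 5 and 6, where 34.2% and 53.4% of genes have a promoter peak.

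**Figure D2:**
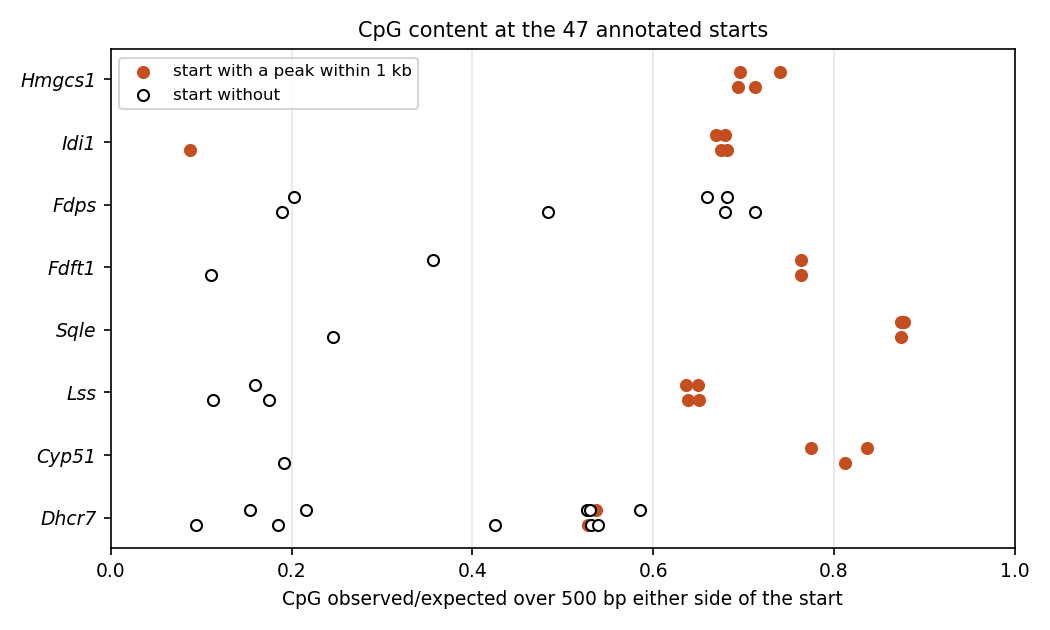
CpG observed/expected, in the 500 bp on each side, at each of the 47 annotated starts, on the horizontal axis, by gene; points are set slightly apart in height only for legibility. Filled points have a peak within 1 kb and sit mostly to the right; the Fdps starts on the right are open.

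Of the 8 genes, Hmgcs1 alone had intronic peaks away from every start; the intron 1 peak of Idi1 lies within 1 kb of a start and is not counted here. With the midpoint in an intron and more than 1 kb from every start of the gene, a peak was present in 1 of the 8 genes (12.5%, exact 95% interval 0.316 to 52.7%), beside 14.4% of protein-coding genes, so the count of genes is near the background. Hmgcs1 itself has 5 of them, between 4060 and 8528 bp after the TSS. They are 213, 257, 436, 581 and 194 bp wide. All 5 lie in intron 1 of Hmgcs1-201; in Hmgcs1-202, which has an extra exon there, the first lies in intron 1 and the other 4 in intron 2. The peak of 257 bp overlaps that exon. In all, 228 protein-coding genes have 5 or more intronic peaks. Among the 11096 genes no longer than Hmgcs1 (17.9 kb) 4 do, namely Hmgcs1, Itln1, Gm14412 and Gm21411; this comparison was chosen after the values were seen.

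The Hmgcs1 intron peaks hold less CpG than most of the peaks at starts. Their CpG observed/expected is 0.201 to 0.423 and their GC content 40.8 to 52.1%. The 9 peaks at starts of the 8 genes run from 0.123, at the narrow repeat-marked peak of Hmgcs1, to 0.970 at Lss, with a median of 0.889, and their median GC content is 62.9%. The 20 elsewhere have medians of 0.311 and 51.1%. Over the list the medians are 0.805 and 65.1% for the 8792 peaks at protein-coding promoters and 0.229 and 52.0% for the 17704 others. The list was split otherwise, by 1 kb either side of the TSS of any protein-coding gene. The promoter peaks of Wdr37 and Neil2 are thus among the 20 here but among the 8792 there. The peak at Fdft1-201 is among the 9 here but among the 17704 there. A whole peak of each kind is printed with every CG in capitals, the promoter peak of Lss, the one richest in CpG of the 9, which has 14 in 101 bases, and the last intron peak of Hmgcs1, which has 3 in 194.
Lss promoter peak, GRCm38.p6, chr10:76531430-76531530, plus strand: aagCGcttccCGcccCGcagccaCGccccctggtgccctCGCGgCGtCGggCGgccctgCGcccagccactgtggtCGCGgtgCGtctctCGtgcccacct
Hmgcs1 intron peak, GRCm38.p6, chr13:119698714-119698907, plus strand: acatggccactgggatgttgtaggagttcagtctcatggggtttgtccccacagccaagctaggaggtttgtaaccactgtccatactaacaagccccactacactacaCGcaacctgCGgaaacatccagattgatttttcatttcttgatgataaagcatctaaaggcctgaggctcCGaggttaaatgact

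Around the genes, peaks were spread very unevenly. Distal peaks, with the midpoint within 50 kb of the TSS and more than 1 kb from it, were present at 5 of the 8 genes (62.5%, exact 95% interval 24.5 to 91.5%), beside 61.1% of protein-coding genes. The median was 1 peak for the 8 genes and 1 for all protein-coding genes. Hmgcs1 had 13, Sqle 5, Fdft1 2, and Idi1 and Fdps 1 each. Lss, Cyp51 and Dhcr7 had 0. Hmgcs1 and Sqle thus hold 18 of the 22 distal peaks. At least 13 distal peaks were present at 260 protein-coding genes (1.19%), and at least 5 at 15.9%.

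The 13 of Hmgcs1 lie on both sides of the gene. Besides the 5 intron peaks and the peaks next to the promoter, 1 of 124 bp lies near 12.6 kb upstream, and peaks of 406 and 216 bp lie near 41.3 and 40.6 kb upstream, within 1 kb of an annotated start of the chemokine gene Ccl28. Peaks of 114, 250 and 637 bp lie between 30381 and 45868 bp downstream of the TSS, past the end of the gene. No other protein-coding gene has its TSS, as defined here, within 50 kb of that of Hmgcs1. The distal peaks of Sqle are all upstream. They include 1 of 872 bp, 12415 to 13286 bp before the TSS, a width that 1.55% of the peaks in the list reach, and a pair of 226 and 208 bp 20177 to 20743 bp before it. Of these the pair has 79.2% and 74.5% of its letters marked as repeat in the genome file, and the peak of 872 bp has 43.1%. The Sqle peaks of 228 and 176 bp have 0 and 14.2%, and the distal Hmgcs1 peaks run from 0 to 100%. Reads were mapped to a repeat-masked genome, but the masking the authors used may differ from this marking and was not tested. The remaining Sqle peaks, of 228 and 176 bp, lie near 8.3 and 34.9 kb, the first at a start of the pseudogene Zfp572.

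At the other genes the distal peaks lay at starts. The Idi1 peak of 391 bp is the promoter peak of Wdr37, 13592 bp upstream, and one of the Fdft1 peaks, of 178 bp, is that of Neil2, a DNA repair glycosylase gene 14278 bp upstream. The other Fdft1 peak is the one at Fdft1-201, and the Fdps peak is at Rusc1. Of the 22 distal peaks, 15 lie with their midpoint more than 1 kb from every annotated start, all of them at Hmgcs1 and Sqle. Lss has Spatc1l and Ftcd as neighbours within 50 kb and Dhcr7 has Mrgpre and Gm498, all without a promoter peak, and Pklr near Fdps had none. The unmasked share of the 100 kb around each TSS, in the genome file, ran from 57.5% at Cyp51 to 75.7% at Fdft1, beside a median of 69.4% over all protein-coding genes. The lowest shares, of 57.5 to 66.4% at Cyp51, Idi1 and Dhcr7, stand beside 0, 1 and 0 distal peaks. Fdps has 68.6% with 1, Hmgcs1 69.1% with 13, Lss 72.2% with 0, Sqle 73.0% with 5 and Fdft1 75.7% with 2. The part of masking in the counts was not tested. None of the 29 peaks around the 8 genes has another match in the genome at 95% identity over 80% of its length. The other peaks of the list were not searched, so no share over the list can be set beside this.

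**Figure D3:**
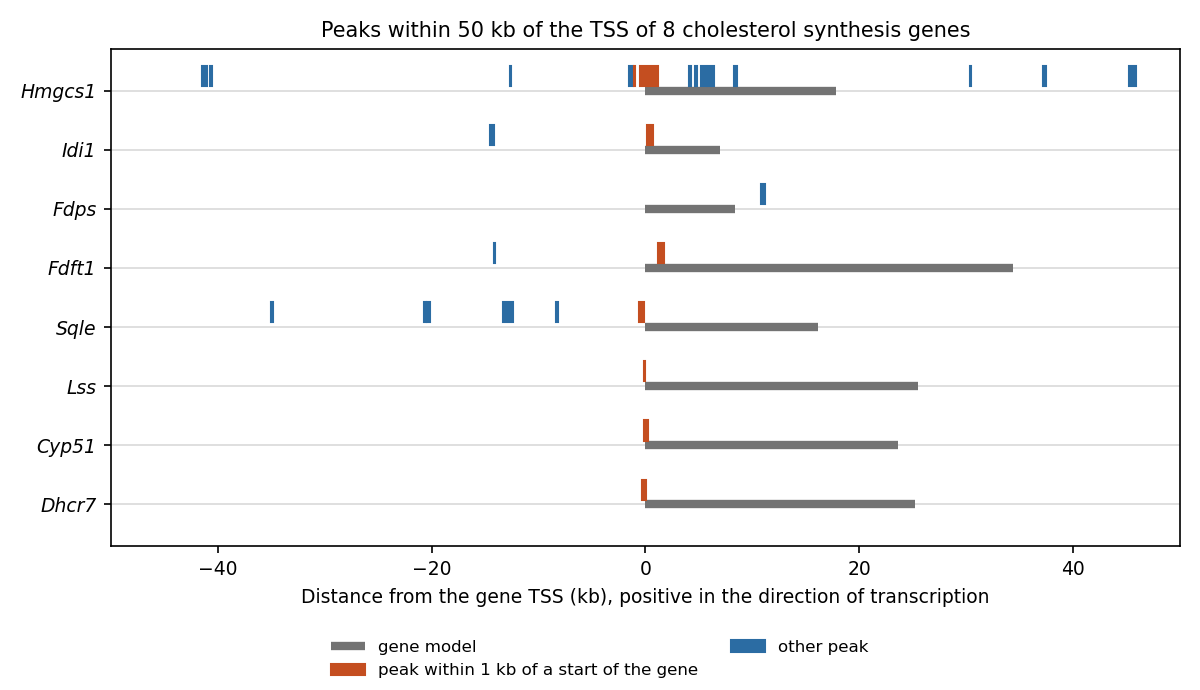
Peaks within 50 kb of the TSS of each gene. The horizontal axis is the distance from the TSS in kb in the direction of transcription, boxes are peaks, in orange within 1 kb of a start of the gene and in blue elsewhere, and grey bars are gene models; Hmgcs1 and Sqle hold most of the blue boxes, while Lss, Cyp51 and Dhcr7 hold none.

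**Figure D4:**
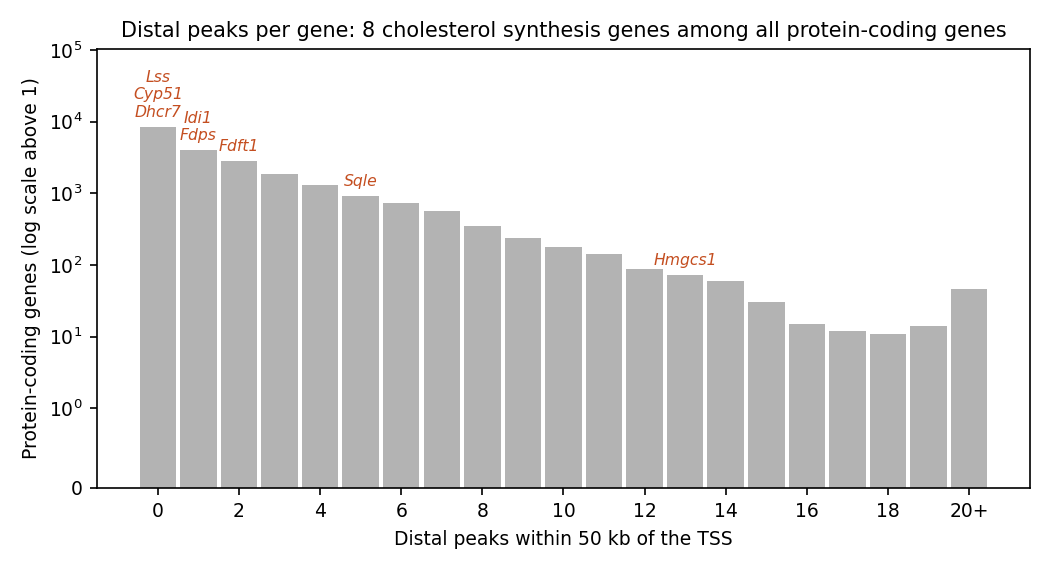
Number of protein-coding genes (vertical axis, log scale above 1) by their number of distal peaks within 50 kb of the TSS (horizontal axis), with the 8 genes named above their bars. Hmgcs1, with 13, stands far to the right, and 3 of the 8 are at 0.

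The promoter peaks of the 6 genes that have one ranged widely in width. The widest per gene was 1704 bp at Hmgcs1, 420 bp at Cyp51, 414 bp at Sqle, 313 bp at Dhcr7, 179 bp at Idi1 and 101 bp at Lss, a median of 364 bp. Over all 8413 protein-coding genes with a promoter peak the median was 281 bp and the quartiles 185 and 422 bp. Hmgcs1 lies above the upper quartile, and Idi1 and Lss below the lower one. Cyp51, Sqle and Dhcr7 lie between them.

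The rest of the pathway was counted in the same way. Of 13 other enzyme genes of cholesterol synthesis, 8 had a promoter peak (61.5%, exact 95% interval 31.6 to 86.1%; their CpG classes alone give 7.29). Among these were Acat2, which starts the chain (widest peak 298 bp), the mevalonate kinase gene Mvk (223 bp), Mvd (401 bp), Tm7sf2 (143 bp), Msmo1 (203 bp) and Hsd17b7 (209 bp). Pmvk had one at another start only. Lbr, Sc5d, Nsdhl and Ebp had none. Nsdhl and Ebp are on chromosome X, where 4.22% of protein-coding genes have a promoter peak.

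Genes that sense, move and take up sterols had a promoter peak at 11 of 16 (68.8%, exact 95% interval 41.3 to 89.0%; their CpG classes give 9.39). Among them were Srebf2, the main SREBP of sterol synthesis (437 bp), Scap, its escort (185 bp), Insig1, the retention protein (252 bp), the protease Mbtps1 (133 bp), Npc1 (138 bp), Npc2 (171 bp), the oxysterol receptors Nr1h2 (190 bp) and Nr1h3 (353 bp), and the exporters Abca1 (191 bp) and Abcg1 (196 bp). Srebf1, the SREBP of fatty acid synthesis, had peaks at other starts only, and Insig2, Mbtps2 on chromosome X and Stard4 were among those with none. Lipogenic SREBP targets had one at 6 of 8 (4.65 from CpG classes): Fasn, Acly, Scd1, Scd2, Elovl6 and Acss2, with a median widest peak of 553 bp and a median of 5 distal peaks, while Acaca had peaks at other starts only and Me1 had none. Of 7 genes of sterol use in the liver (such as Cyp7a1, Cyp8b1, Cyp27a1 and Cyp7b1 of bile acid synthesis, and Abcg5 and Abcg8) 0 had one, with an exact upper limit of 41.0% and 1.23 from CpG classes. The interval of each of these lists except the sterol regulators contains 38.4%. With only peaks wider than the list median of 223 bp, the sterol regulators with a promoter peak numbered 4 of 16, beside 24.6% of all protein-coding genes. Differences between the lists were not tested.

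**Figure D5:**
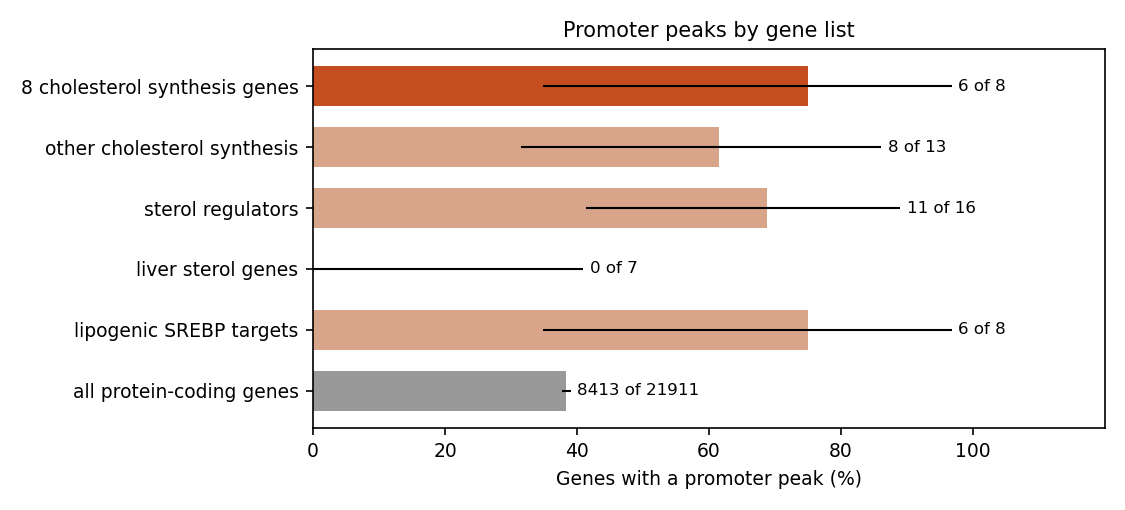
Share of genes with a promoter peak, in percent on the horizontal axis, for the 8 genes, 4 related lists and all protein-coding genes. Bars start at 0, lines are exact 95% intervals for counting error and labels give the counts; the 8 genes (6 of 8) and the liver sterol genes (0 of 7) are the ends among the lists, with the lipogenic targets level with the 8.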

How the data were processed

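ALaP-seq was done on 2 H2O2+ and 2 H2O2- samples. Per the submitters' processing notes and the series' design text, the authors used Trimmomatic for trimming, Bowtie2 2.3.5.1 for mapping to repeat-masked mm10, and bedtools to drop blacklisted and greylisted regions. The sources used here do not give how peaks were called and merged. The list as deposited gives peak coordinates only, with no score, signal or count from the authors, and no column of per-sample values.

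Peaks were joined to GENCODE M21 (GRCm38) with Python 3.11.15, pandas 2.3.3 and pysam 0.24.0, with 1 TSS per gene symbol. No peak ran past a chromosome end. CpG observed/expected was taken over 500 bp either side of a start. Shares carry Clopper-Pearson intervals from scipy 1.17.1. Copies were sought with blastn 2.17.0. Overlap counting was tested on simulated peaks. No test was run: the list has no replicates, and counts are set beside all protein-coding genes. The 8 genes, the related lists, the words searched and the naming rule (the 8 genes with all their peaks, every gene of the lists, and neighbours within 50 kb) were chosen with earlier results of these data known. Some genes of the related lists count in their totals but are not reported here by name. Alternatives varied windows, starts, overlap and peak width.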

Additional observations from a re-analysis of the deposited data

How the results depend on the processing

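Of 31 alternative settings, 23 kept the count or median within 1.5 times its main value, and none was tested against a threshold. The count of the 8 genes with a promoter peak ran from 4 (only peaks wider than the list median of 223 bp, which drops Idi1 and Lss; 24.6% of all protein-coding genes) to 7 (2 kb windows or any start, both of which add Fdft1). Beside the 7 stand 40.3% of all protein-coding genes for 2 kb windows and 42.4% for any start. Hmgcs1 remained the gene with intronic peaks in each of 3 alternatives, with 5, 4 and 3 of them. That is 1 of the 8 genes each time, beside 13.6%, 14.0% and 8.43% of all protein-coding genes. Of the 47 starts, 7 lay inside a peak (18.2% of all starts), 14 had a wider peak (22.3%), and 13 of 26 starts of protein-coding transcripts had one (37.9%). The median number of distal peaks was 3 within 100 kb (3 for all genes), 0.5 outside 1 kb of every protein-coding TSS (0 for all genes), and 1.59 per 100 kb of unmasked sequence (1.47 for all genes); these settings count other regions or units by construction. With only wider peaks, 3 of the other cholesterol synthesis genes and 4 of the 16 sterol regulators had a promoter peak (24.6% of all protein-coding genes). No paired analysis was possible because the list holds no value per sample; leaving out a replicate could not be done for the same reason. Depth is unknown, so a gene without a peak is not shown to lack labelling.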

Other observations

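In a wider window Hmgcs1 still had the most distal peaks of the 8 genes. Within 100 kb of the TSS it had 28, beside 6 each for Sqle and Fdps, 3 each for Lss and Fdft1, 1 for Idi1 and 0 for Cyp51 and Dhcr7, with a median of 3 over all protein-coding genes.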
